A study of Mus musculus with 18 samples.

Results

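The 10 genes described here encode the machinery by which a cell displays peptides on MHC class I: *H2-K1*, *H2-D1*, *B2m*, *Tap1*, *Tap2*, *Tapbp*, *Psmb8*, *Psmb9*, *Nlrc5* and *H2-T23*. They were chosen by name, and all 10 were found among the 55573 Ensembl genes counted in spinal cord tissue of adult C57BL/6J mice, taken from the dorsal horn (DHSC). RNA-sequencing had been performed on the ipsilateral DHSC 2 h after injection of 2% formalin into the hind paw, in 6 F1/proestrus females, 6 F2/metestrus females and 6 males. F1 females had shown a short and F2 females a long interphase, the quiet period between the first and second phases of formalin-evoked nocifensive behavior, so that behavior and estrus stage coincided in these groups. All 18 mice had received formalin, and no mouse without formalin is analysed here, so that responses to formalin cannot be told apart from steady-state levels.

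MHC class I molecules are displayed by nearly all nucleated cells and carry peptides that are read by CD8+ T cells and NK cells. The peptides are cut in the cytosol by the proteasome, whose catalytic subunits Psmb5 and Psmb6 can be replaced by the inducible subunits Psmb8 and Psmb9. The peptides are then pumped into the endoplasmic reticulum by the Tap1-Tap2 transporter, and loaded with the help of tapasin (Tapbp) on a heavy chain (H2-K1 or H2-D1, or H2-T23 among the nonclassical ones) paired with beta-2-microglobulin (B2m). Nlrc5 is a transactivator of class I promoters, and interferons are the classical inducers of the whole set. In the resting central nervous system class I is mainly a product of endothelial cells and microglia, with a lower display on neurons.

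In GRCm38, 8 of the 10 genes lie in the MHC on chromosome 17, between bases 33915899 and 36032855. *B2m* lies at chr2:122147686-122153083 and *Nlrc5* at chr8:94434356-94527272. *Psmb9* (chr17:34181987-34187764, minus strand) and *Tap1* (chr17:34187553-34197225, plus strand) lie head to head, with *Psmb8* (chr17:34197721-34201454) and *Tap2* (chr17:34203527-34216321) following on the plus strand. *Tap1* and *Psmb9* share 212 exon bases on opposite strands. *Psmb8* shares 498 exon bases, 14.7% of its exon length, with the antisense gene *Gm20496*, *Tap2* shares 14.1% with *Gm15821*, and *Tapbp* shares 24.9% with *Gm19412*. Whether counting used the strand is not stated, so reads in these stretches cannot be told apart from those of the partner gene. *H2-K1* and *H2-D1* resemble each other and other class I genes, and only uniquely mapped reads were counted, which makes the division of reads among these copies uncertain.

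RefSeq windows from 250 bases before to 50 bases after the transcription start (GRCm38.p6) were found for 8 of the 10 genes; those of *Tap2* and *Nlrc5* are not used here. The windows of 3 class I chain genes and of *Tap1* are shown because the members varied together between samples (below) and because 3 of these windows hold the same pair of motifs. Capitals mark the interferon regulatory factor core AANNGAAA, the X2 core TGACG and the Y box CCAAT on either strand.
*H2-K1*, chr17:34000298-34000597, minus strand: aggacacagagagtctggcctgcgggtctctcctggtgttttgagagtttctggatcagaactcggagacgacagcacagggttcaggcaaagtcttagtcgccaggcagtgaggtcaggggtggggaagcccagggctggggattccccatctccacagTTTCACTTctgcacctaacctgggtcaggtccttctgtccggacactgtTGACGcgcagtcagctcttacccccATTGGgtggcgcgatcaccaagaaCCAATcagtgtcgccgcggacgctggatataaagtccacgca
*H2-D1*, chr17:35262844-35263143, plus strand: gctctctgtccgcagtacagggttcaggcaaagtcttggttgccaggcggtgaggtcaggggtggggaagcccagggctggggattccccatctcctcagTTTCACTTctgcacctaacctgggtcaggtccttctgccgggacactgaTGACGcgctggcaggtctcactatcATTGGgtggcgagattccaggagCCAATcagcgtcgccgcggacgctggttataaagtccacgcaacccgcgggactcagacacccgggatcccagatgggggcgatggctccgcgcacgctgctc
*B2m*, chr2:122147437-122147736, plus strand: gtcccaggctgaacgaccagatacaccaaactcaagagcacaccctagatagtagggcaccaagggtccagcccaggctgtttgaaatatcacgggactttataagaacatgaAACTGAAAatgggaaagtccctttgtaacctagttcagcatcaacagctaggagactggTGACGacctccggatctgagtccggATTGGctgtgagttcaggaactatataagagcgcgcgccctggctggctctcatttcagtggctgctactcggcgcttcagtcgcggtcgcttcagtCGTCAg
*Tap1*, chr17:34187306-34187605, plus strand: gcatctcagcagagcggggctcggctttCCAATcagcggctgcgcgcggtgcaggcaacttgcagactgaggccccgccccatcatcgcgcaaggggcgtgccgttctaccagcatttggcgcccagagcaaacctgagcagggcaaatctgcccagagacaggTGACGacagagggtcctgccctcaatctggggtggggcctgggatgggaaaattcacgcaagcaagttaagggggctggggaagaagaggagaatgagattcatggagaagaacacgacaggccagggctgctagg

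These motifs were chosen after the windows had been read, and a match describes letters only. In *H2-K1*, *H2-D1* and *B2m* the sequence TGACG was followed by ATTGG after a gap of 20 bases, and a gap of 18 to 22 bases between these motifs was found in 88 of 32851 mouse windows (0.268%). AANNGAAA was found in *H2-K1*, *H2-D1*, *B2m* and *H2-T23*, and in 23.9% of all windows. The interferon-stimulated response element, a longer form that contains this core, was found in *B2m* and *H2-T23* and in 3.44% of windows. The gamma-activated sequence TTCNNNGAA was found in *Psmb8* and in 8.30% of windows. The X2 core alone was present in 20.8% and the Y box alone in 37.4% of all windows. The *Tap1* and *Psmb9* windows share 275 bases, as their starts are 226 bases apart.

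Total counts ranged from 73590509 to 125724156 per sample, at which 3 counts corresponded to 0.0240 to 0.0407 CPM, a floor that covers counting error only. CPM are counts as parts of a normalized library total (TMM), set to one common size for all samples. The library numbers in the count table form 2 series, 27 to 35 for replicates 1 to 3 and 188 to 196 for replicates 4 to 6, each with 3 samples of every group. All 7 dorsal horn markers were detected, and so were the motor neuron and ventral horn markers, with summed levels of 17.7 to 135 CPM. F2/metestrus samples 2, 4 and 5 stood apart in the genes described here and in interferon-induced genes. Results are therefore also given without them, a choice made after the values were seen. The labels do not state that each sample is 1 animal, so that p-values measure the spread between these samples.

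The levels of the 10 genes differed widely when expressed per length (CPM per kb of exon, mean over 18 samples). Exon length pools the exons of all annotated transcripts of a gene, and the order of close levels can change with another choice of length. For *Tapbp* and *H2-K1* it was 3628 and 2938 bases, against 2898 and 1874 bases in the longest transcript. *B2m*, the invariant light chain, had the highest level with 91.7 ± 20.3 CPM per kb (SD, n = 18), followed by the classical heavy chain *H2-D1* with 68.1 ± 10.0. *Tapbp* (21.3) and *H2-K1* (17.2) came next, then *Tap2* (7.82) and the nonclassical *H2-T23* (6.21). The lowest levels were those of *Psmb8* (2.15), *Tap1* (1.26), *Psmb9* (0.668) and *Nlrc5* (0.180 CPM per kb). The ranges of neighbours in this order were fully apart for *H2-D1* over *Tapbp* and *H2-K1* over *Tap2* alone. Within samples, however, the order held in 18 of 18 samples for 7 of the 9 neighbouring pairs, in 17 for *Tapbp* over *H2-K1* and in 16 for *Tap2* over *H2-T23*. The transporter subunits thus differed in level, with *Tap2* above *Tap1* in each of the 18 samples.

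**Figure D1:**
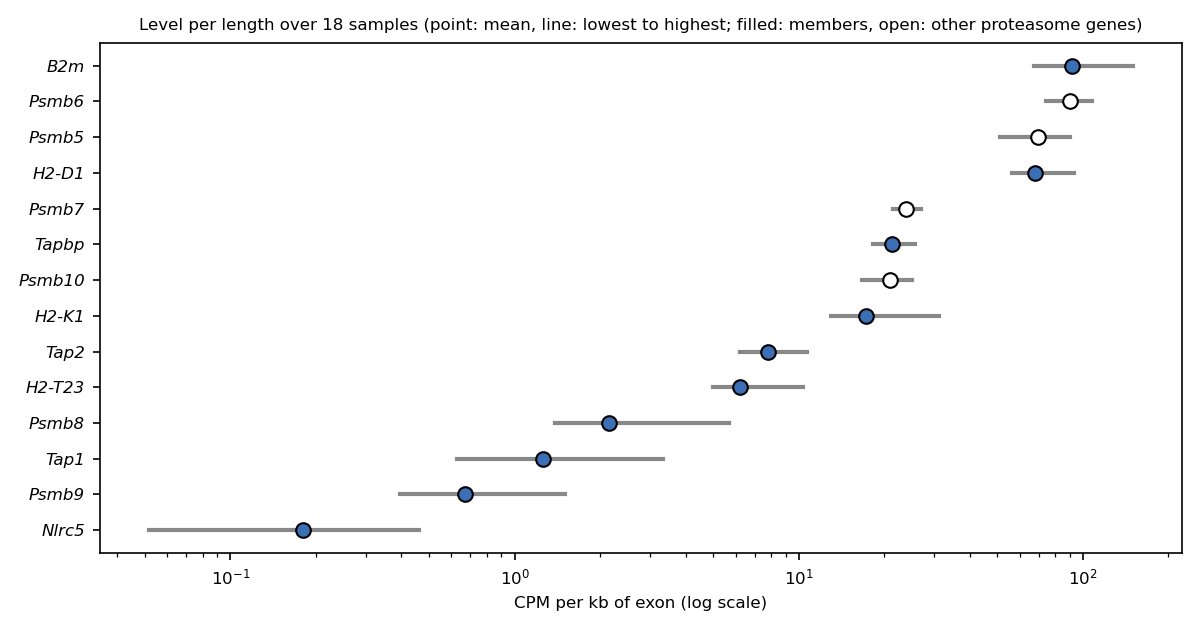
Level per exon length (CPM per kb, log scale) of the 10 members (filled points) and of 4 other proteasome genes (open points), as the mean and the range over 18 samples. *B2m* and *Psmb6* are highest (91.7 and 90.3), and *Psmb8*, *Tap1*, *Psmb9* and *Nlrc5* form the low end of the set with the widest ranges.

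The inducible proteasome subunits were far below their constitutive counterparts. *Psmb5* and *Psmb6* had 69.4 and 90.3 CPM per kb. The level of *Psmb8* per length was 2.63% ± 0.539 (SD, n = 6) of that of *Psmb5* in F1/proestrus, 4.13% ± 1.88 in F2/metestrus and 2.52% ± 0.206 in males. *Psmb9* was at 0.586% ± 0.108 of *Psmb6* in F1/proestrus, 1.01% ± 0.405 in F2/metestrus and 0.624% ± 0.108 in males. The third inducible subunit, *Psmb10*, was instead close to its counterpart *Psmb7* per length, at 84.5% ± 7.39, 87.7% ± 9.04 and 90.6% ± 5.84 in the same groups. These ratios depend on the exon lengths used, which were 1705 bases for *Psmb10* and 3421 bases for *Psmb7*. In CPM without length, the means over 18 samples were 35.7 for *Psmb10* and 81.7 for *Psmb7*. They were 7.27 for *Psmb8* against 62.4 for *Psmb5*, and 2.44 for *Psmb9* against 169 for *Psmb6*.

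Whether the female groups differed was tested in the 12 females. All 10 genes had higher means in F2/metestrus than in F1/proestrus, with a median log2 fold change of 0.34 against -0.000379 over all genes tested, but none was called. *Nlrc5* (2.15-fold), *Tap1* (1.93-fold), *Psmb9* (1.73-fold) and *Psmb8* (1.61-fold) had the largest differences, above those of 99.5% to 99.9% of the genes tested. The edgeR quasi-likelihood test with Benjamini-Hochberg adjustment called 0 of the 10 genes and 0 of 24042 genes (0%) at an FDR of 5%, with adjusted p = 1 for each of the 10. At an unadjusted p under 0.05 there were 6 of the 10 genes, among 596 of all genes (2.48%). DESeq2 and limma voom also called 0 of the 10 genes, with 2 and 0 calls among all genes.

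Among the heavy chains, *H2-K1* ranged from 38.1 to 59.0 CPM in F1/proestrus with a median of 43.6, and from 41.6 to 91.3 CPM in F2/metestrus with a median of 53.6. The log2 fold change was 0.38 (SE 0.167). *H2-D1* ranged from 145 to 216 CPM (median 156) in F1/proestrus and from 163 to 240 CPM (median 182) in F2/metestrus, with a log2 fold change of 0.20 (SE 0.109). F1/proestrus sample 5, with 59.0 CPM for *H2-K1* and 216 CPM for *H2-D1*, lay among the higher F2/metestrus samples, and the groups overlapped for both genes. *H2-T23*, the ligand of the CD94-NKG2A receptor of NK cells, ranged from 14.9 to 20.7 CPM in F1/proestrus and from 15 to 30.1 CPM in F2/metestrus. Its log2 fold change was 0.30 (SE 0.146). *B2m* ranged from 59.0 to 85.5 CPM in F1/proestrus with a median of 69.1, and from 64.8 to 129 CPM in F2/metestrus with a median of 85.8. Its log2 fold change was 0.30 (SE 0.150), and the lower F2/metestrus samples lay within the range of the F1/proestrus samples.

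The transporter genes differed from each other in the size of the difference. *Tap1* ranged from 3.42 to 7.55 CPM in F1/proestrus (median 4.69) and from 5.39 to 18.2 CPM in F2/metestrus (median 8.86), with a log2 fold change of 0.95 (SE 0.288). *Tap2* ranged from 25.6 to 31.8 CPM (median 27.6) and from 27.2 to 40.3 CPM (median 31.1), with a log2 fold change of 0.22 (SE 0.0910). For both, the F2/metestrus samples reached beyond the F1/proestrus samples at the upper end and overlapped them at the lower end. *Tapbp* was the most even of the 10 genes, at 66.2 to 90.6 CPM and 70.6 to 93.0 CPM, a log2 fold change of 0.14 (SE 0.0790).

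The inducible subunits and *Nlrc5* were widely spread within the F2/metestrus group. *Psmb8* ranged from 4.86 to 7.78 CPM in F1/proestrus (median 5.72) and from 4.71 to 19.3 CPM in F2/metestrus (median 8.39), with a log2 fold change of 0.68 (SE 0.283). *Psmb9* ranged from 1.45 to 2.31 CPM (median 1.96) and from 1.82 to 5.53 CPM (median 2.88), with a log2 fold change of 0.79 (SE 0.244). *Nlrc5*, the transactivator, lay between 0.896 and 1.22 CPM in all 6 F1/proestrus samples but between 0.568 and 3.93 CPM in F2/metestrus, with a log2 fold change of 1.10 (SE 0.351). The F2/metestrus samples thus held both the lowest and the highest female values of *Nlrc5* and *Psmb8*. None of the 10 genes separated the groups without overlap, as did 0.105% of all genes.

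**Figure D2:**
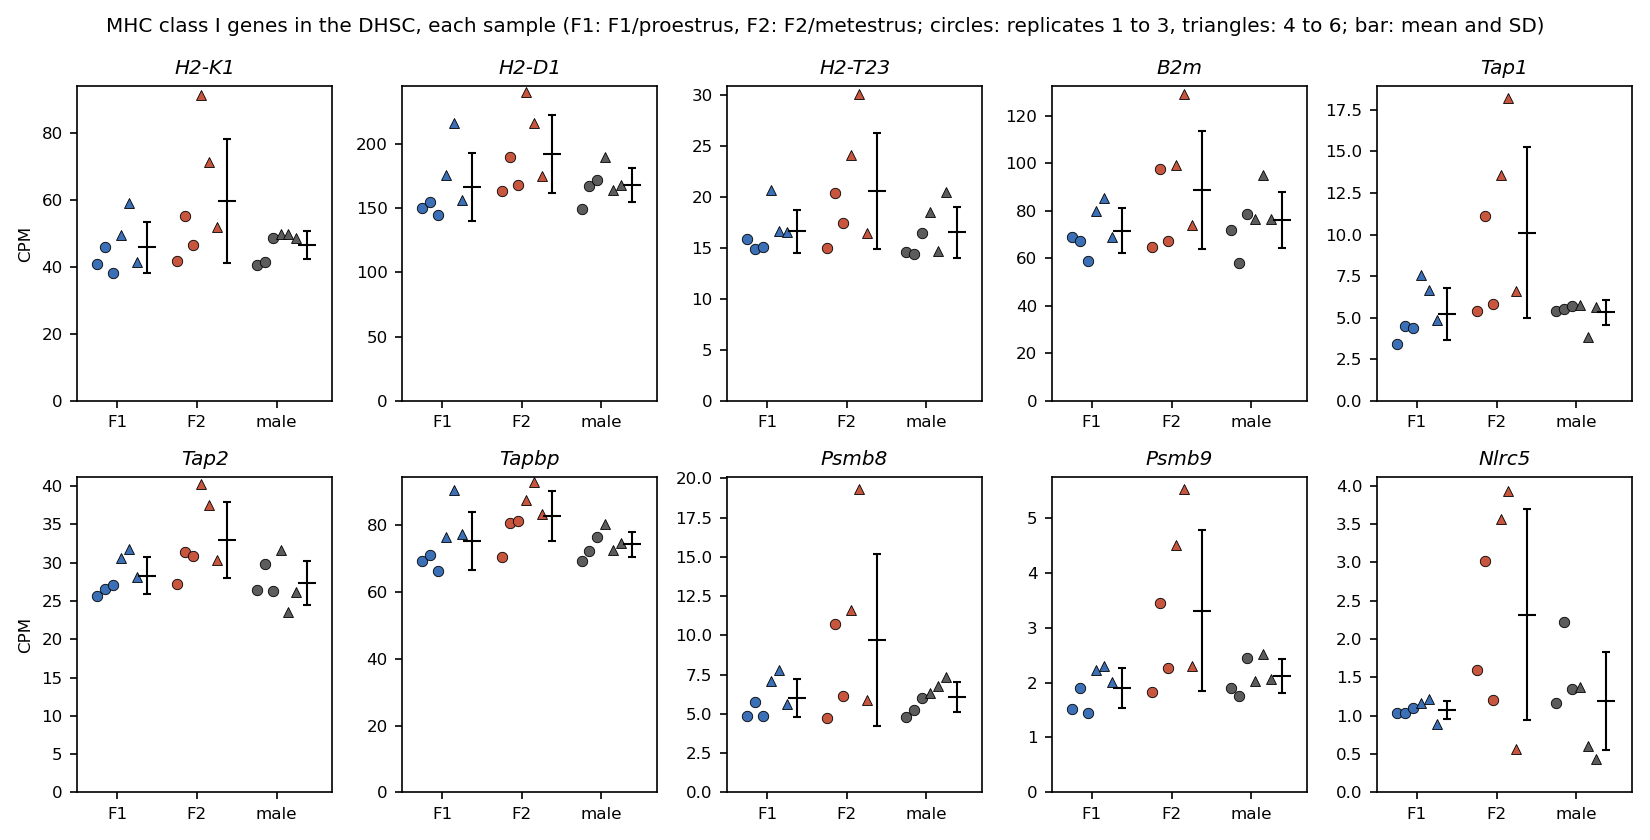
CPM of each member in each sample (y axes from 0, one scale per gene) for F1/proestrus, F2/metestrus and males, with the mean and SD of 6 samples beside each group. In F2/metestrus 3 samples lie above the rest for *Tap1*, *Psmb8*, *Psmb9*, *Nlrc5* and *B2m*, whereas the other 3 lie near the F1/proestrus and male samples.

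The higher means in F2/metestrus came with high values in samples 2, 4 and 5 of that group. For *B2m*, *Tap1*, *Psmb8*, *Psmb9* and *Nlrc5* these were the 3 highest of all 18 samples, which was the case for 54 of 24862 genes (0.217%). As the samples were picked after such values had been seen, this count follows partly from the choice. *Tap1* had 11.1, 13.6 and 18.2 CPM in these samples, against 3.42 to 7.55 CPM in the other 15. *Psmb8* had 10.7, 11.6 and 19.3 CPM against 4.71 to 7.78 CPM. *Nlrc5* had 3.02, 3.57 and 3.93 CPM against 0.438 to 2.22 CPM. Whether *Nlrc5* acted on the other members in these samples was not tested. *Psmb9* had 3.45, 4.50 and 5.53 CPM against 1.45 to 2.52 CPM, and *B2m* had 97.6, 99.4 and 129 CPM against 58.0 to 94.9 CPM. All 10 genes were above their own mean over samples in these 3 samples and in no other. These samples belong to both library series. Without them the fold changes of *B2m* (-0.06), *Psmb8* (-0.11) and *H2-T23* (-0.03) turned negative on the log2 scale, and those of the other 7 genes fell to between 0.02 (*H2-D1*) and 0.18 (*Tap1*). As the samples were picked for their high values, this shrinkage follows partly from the choice and shows only where the differences lay.

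Within replicates 1 to 3 and within replicates 4 to 6, fitted alone, all 10 genes were higher in F2/metestrus than in F1/proestrus. Each of these fits holds F2/metestrus samples named above for their high values, sample 2 in replicates 1 to 3 and samples 4 and 5 in replicates 4 to 6. The direction within each series is therefore not independent of these samples. The median log2 fold change of the 10 genes was 0.22 in replicates 1 to 3 and 0.45 in replicates 4 to 6, where *Nlrc5* reached 0.88 and 1.30, and *Tap1* reached 0.85 and 1.01. The difference between the series was tested as an interaction and was called by edgeR for 0 of the 10 genes (0 at an unadjusted p under 0.05), and for 0.00832% of all genes.

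**Figure D3:**
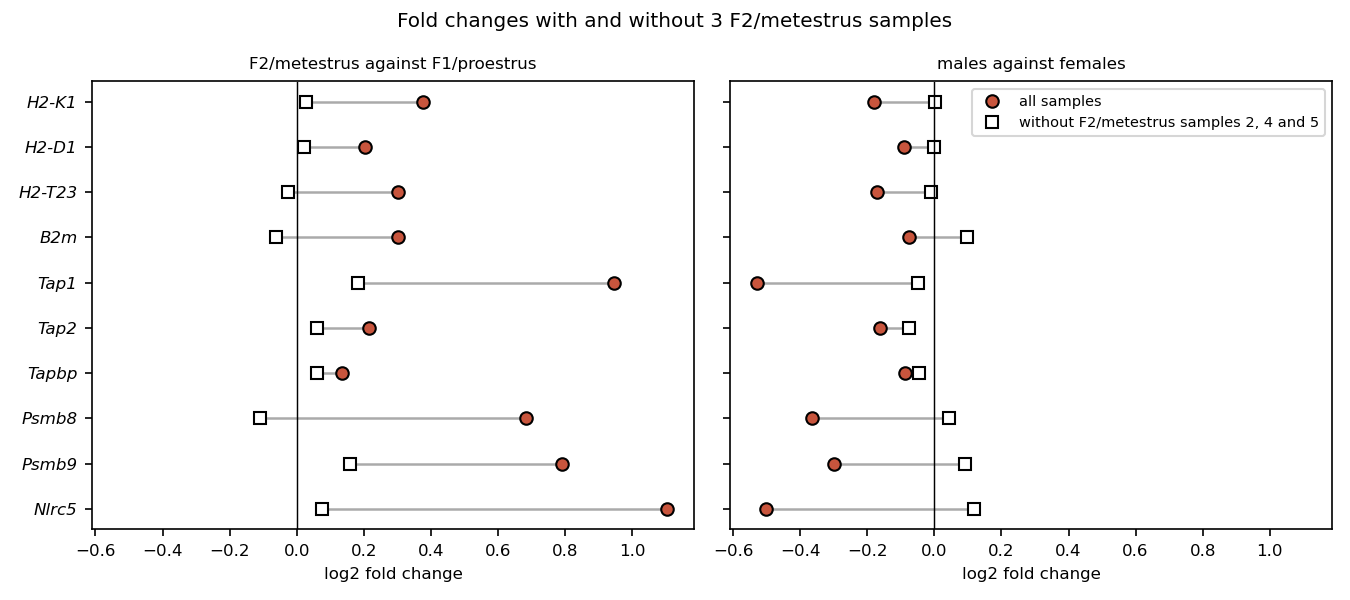
Log2 fold changes of the 10 members with all samples (circles) and without F2/metestrus samples 2, 4 and 5 (squares), for F2/metestrus against F1/proestrus and for males against females. In the female comparison the values shrink from 0.14 to 1.10 to between -0.11 and 0.18. This shrinkage follows partly from the choice of the samples, which were picked for their high values.

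Males were compared with all 12 females, which include the same F2/metestrus samples. All 10 genes had lower fitted levels in males, with a median log2 fold change of -0.18. None was called (edgeR, 0 of 10 genes against 0.197% of all 24862 genes, 0.0483% lower, adjusted p from 0.554 to 0.874), and 0 of the 10 passed an unadjusted p of 0.05. DESeq2 and limma voom called 0 of the 10 as well. *Tap1* had the largest difference, -0.53 (SE 0.287), with 3.86 to 5.78 CPM in males against 3.42 to 18.2 CPM in females. *Nlrc5* followed with -0.50 (SE 0.393), at 0.438 to 2.22 CPM in males and 0.568 to 3.93 CPM in females. *Psmb8* (-0.37), *Psmb9* (-0.30), *H2-K1* (-0.18), *H2-T23* (-0.17), *Tap2* (-0.16), *H2-D1* (-0.09), *Tapbp* (-0.09) and *B2m* (-0.08) differed less. All male values lay within the female range for 6 of the 10 genes, and the lowest male sample lay below it for *B2m*, *Tap2*, *Nlrc5* and *H2-T23*. No gene separated the sexes without overlap (0.125% of all genes did).

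The fold changes of males changed with the females they were set against. Against F1/proestrus alone, the log2 fold changes of males lay between -0.06 (*Tap2*) and 0.14 (*Psmb9*), with 7 of 10 positive. Against F2/metestrus alone they lay between -0.97 (*Nlrc5*) and -0.16 (*Tapbp*), with 10 of 10 negative. Without F2/metestrus samples 2, 4 and 5 they lay between -0.08 and 0.12, with 5 of 10 positive. This shift follows partly from the choice of these samples, which were picked for their high values. Within replicates 1 to 3 alone the median was -0.04 and *Nlrc5* was positive (0.05), whereas within replicates 4 to 6 the median was -0.29. An interaction with the series was called for 0 of the 10 genes by edgeR (0 at an unadjusted p under 0.05) and for 0% of all genes.

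The library series, by contrast, went along with called differences in these genes. Of the 10 genes, 6 were higher in replicates 4 to 6 than in replicates 1 to 3 (edgeR, 18 samples, group as a covariate), where 27% of all 24862 genes were called (14% higher and 13% lower). These were *Psmb8* (log2 fold change 0.51, adjusted p = 0.0352), *H2-K1* (0.34, adjusted p = 0.0113), *B2m* (0.30, adjusted p = 0.0269), *H2-T23* (0.30, adjusted p = 0.0255), *H2-D1* (0.22, adjusted p = 0.0168) and *Tapbp* (0.16, adjusted p = 0.0102). *H2-K1* ranged from 38.1 to 55.2 CPM in replicates 1 to 3 and from 41.5 to 91.3 CPM in replicates 4 to 6. *Psmb9* (0.42, adjusted p = 0.0521), *Tap1* (0.43, adjusted p = 0.098), *Tap2* (0.15, adjusted p = 0.105) and *Nlrc5* (-0.14, adjusted p = 0.798) did not pass. None of the 10 genes separated the series without overlap, against 4.08% of all genes. Among males alone 0 of the 10 genes passed. *H2-K1*, *H2-D1* and *Tapbp* passed whichever sample was left out. *B2m* did not pass without F2/metestrus sample 1 or 5 or male sample 2 or 5 (adjusted p = 0.0515 to 0.0879), nor did *H2-T23* without F2/metestrus sample 1 (adjusted p = 0.0509). *Psmb8* did not pass without F1/proestrus sample 5, F2/metestrus sample 1, 3, 4 or 5, or male sample 1, 5 or 6 (adjusted p = 0.0513 to 0.0722), nor with robust dispersions (adjusted p = 0.0565). Among females alone *B2m* (adjusted p = 0.0881), *Psmb8* (0.118) and *H2-T23* (0.0863) did not pass, whereas *Tap1* (0.0469) and *Tap2* (0.0299) did, and *Psmb9* (0.0642) did not. DESeq2 on all 18 samples also called *Psmb9* (adjusted p = 0.0274). Without F2/metestrus samples 2, 4 and 5 together, *H2-D1* (0.18, adjusted p = 0.0573) and *H2-T23* (0.21, adjusted p = 0.067) did not pass. The series differed over all genes with GC content (Spearman rho of the log2 fold change with GC 0.30, and with transcript length -0.28, across 24849 genes, which are not independent replicates). The GC content of the 10 genes was 52.5% to 57.1%, except for *B2m* with 41.2%, and the median over all genes was 49.4%. The part of GC content in these calls was not tested.

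**Figure D4:**
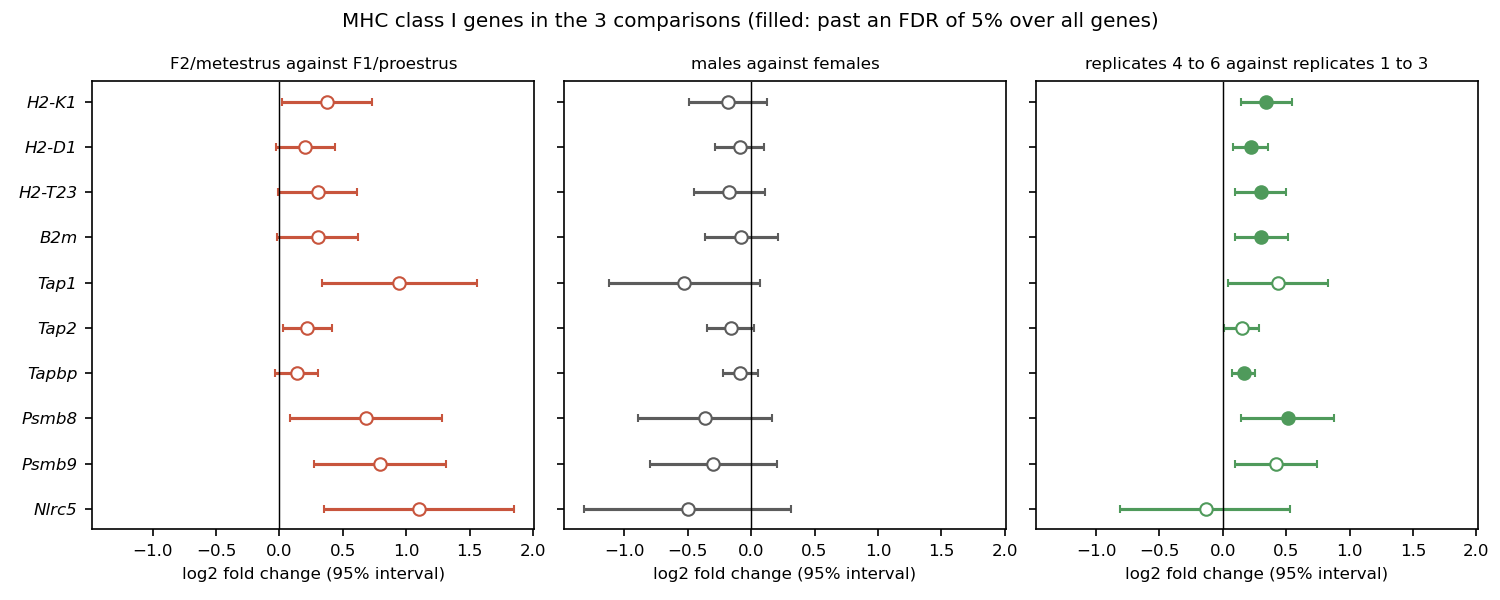
Log2 fold changes of the 10 members with 95% intervals in the 3 comparisons, filled where the gene was called at an FDR of 5%. Intervals of 6 members (*Nlrc5*, *Tap1*, *Psmb9*, *Psmb8*, *H2-K1* and *Tap2*) between the female groups lie above 0 but none of these genes was called, whereas 6 members were called between the library series.

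The other proteasome genes had fold changes near 0 between the female groups. *Psmb5*, *Psmb6*, *Psmb7*, *Psmb10* and the activator subunits *Psme1* and *Psme2* had log2 fold changes of -0.04 to 0.05 between F2/metestrus and F1/proestrus, and 0 of 6 were called. Between males and females their log2 fold changes were 0.04 to 0.15, again with 0 of 6 called. Between the series 6 of 6 were higher in replicates 4 to 6 (14% of all genes were), by 0.14 (*Psmb7*) to 0.38 (*Psmb5*) on the log2 scale. The loading and trimming list, which holds the chaperones *Calr*, *Canx* and *Pdia3* and the peptide trimmer *Erap1*, had a median of 0.03 in the female comparison and -0.05 in males, with 0 of 7 called in either. Between the series *Tapbpl* (0.13), the tapasin relative, was higher and *Canx* (-0.14) and *Lnpep* (-0.28) were lower, against 14% and 13% of all genes.

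Among the regulators, *Irf1*, an interferon-induced factor that binds class I promoters, had 6.64 to 8.59 CPM in F1/proestrus, 6.39 to 16.4 CPM in F2/metestrus and 5.90 to 7.64 CPM in males. Its 3 highest values, 10.9, 11.7 and 16.4 CPM, were again those of F2/metestrus samples 4, 2 and 5. *Rfx5*, a subunit of the factor that binds the X box of class I promoters, was even at 27.5 to 34.8 CPM over the 18 samples, with log2 fold changes of 0.04 between the female groups and -0.01 in males. None of the 17 regulators was called between the female groups or between the sexes, with 3 at an unadjusted p under 0.05 in each, where all genes had 2.48% and 9.72%. Between the series 4 of 17 were higher, against 14% of all genes, *Irf2* (0.21), *Nfyb* (0.15), *Nfyc* (0.26) and *Rela* (0.18). The interferon receptors and their kinases had log2 fold changes of 0.00 to 0.08 between the female groups, and none of 7 was called there or in males. Between the series *Ifngr2* was higher (0.13) and *Jak1* (-0.19), *Jak2* (-0.23) and *Tyk2* (-0.22) were lower, against 14% and 13% of all genes.

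A list of 28 interferon-induced genes, of which 27 were tested, was highest in the same samples as the members. In F2/metestrus 26 of 27 were higher than in F1/proestrus, with a median log2 fold change of 0.54 and 15 at an unadjusted p under 0.05, but 0 were called. In males 25 of 27 were lower than in females, with a median of -0.59 and 17 at an unadjusted p under 0.05 (9.72% of all genes), and 0 were called. *Gbp2*, a guanylate-binding protein, had 24.5, 13.9 and 45.6 CPM in F2/metestrus samples 2, 4 and 5 and 3.99 to 6.51 CPM in the other 15 samples. For 12 of the 27 genes these were the 3 highest samples, against 0.217% of all genes. This count, too, follows partly from the choice of samples, which was made with these values known. The summed level of the list was 137 to 192 CPM in F1/proestrus, 170 to 393 CPM in F2/metestrus and 136 to 168 CPM in males, with 255, 301 and 393 CPM in samples 2, 4 and 5. The sums did not differ between the female groups beyond the spread (244.8 against 165.0 CPM, exact permutation test over 924 splits, two-sided p = 0.0519, adjusted p = 0.378). Between the series 3 of these 27 genes were higher, against 14% of all genes, *Isg15* (0.45), *Ifitm3* (0.34) and *Xaf1* (0.26).

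**Figure D5:**
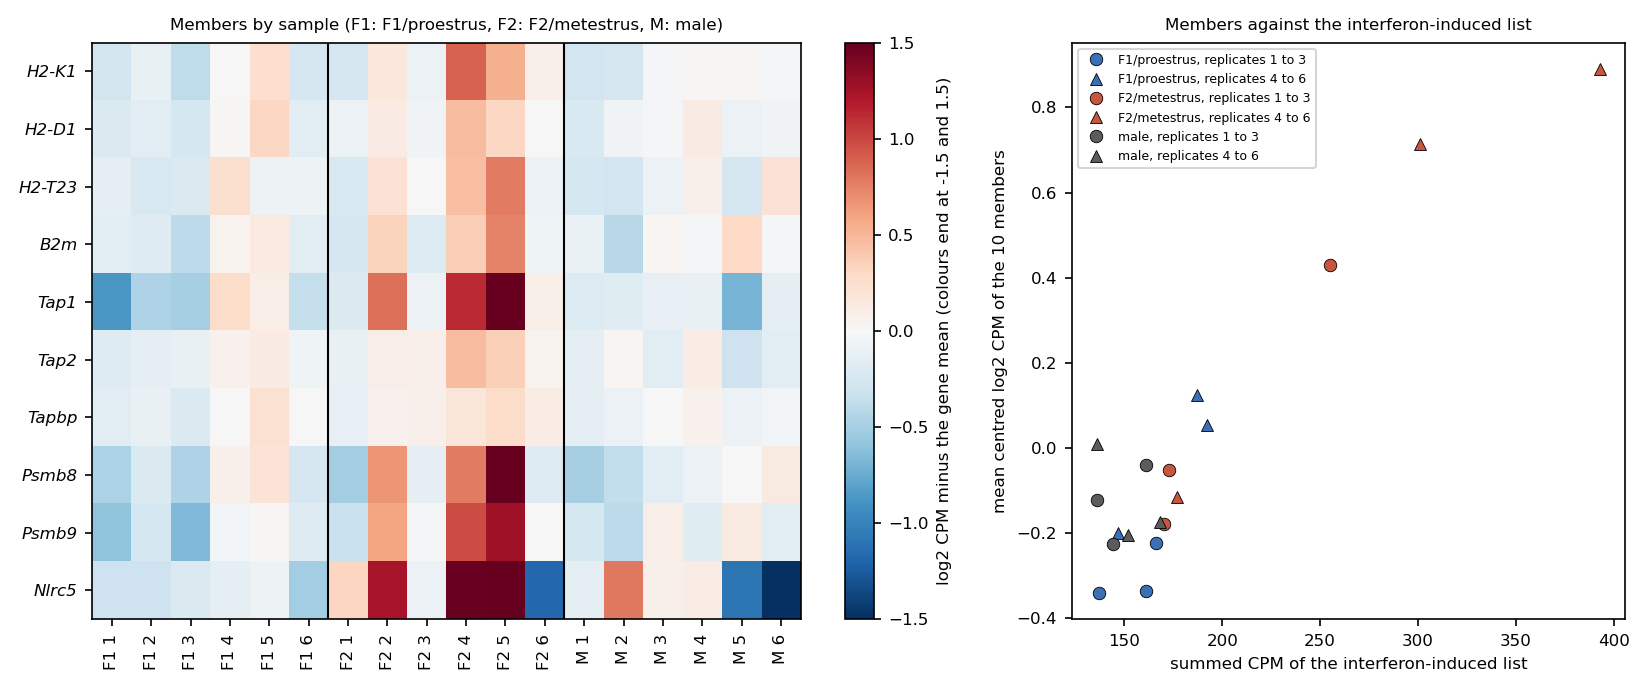
Left, log2 CPM of each member minus its mean over samples, for 18 samples in 3 groups; right, the mean of these values over the 10 members against the summed CPM of the interferon-induced list, 1 point per sample. F2/metestrus samples 2, 4 and 5 have the highest member means (0.43, 0.71 and 0.89) and the highest sums (255, 301 and 393 CPM).

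The 10 genes varied together between samples. Over the 45 pairs, Pearson's r of log2 CPM across 18 samples had a median of 0.79 and ranged from 0.41 (*Tapbp* with *Nlrc5*) to 0.94 (*Psmb8* with *Psmb9*), and 43 pairs had an adjusted p under 0.05 in a two-sided permutation test with 100000 resamples and Benjamini-Hochberg adjustment. Spearman's rho had a median of 0.75 (0.25 to 0.92), with 37 such pairs. For *H2-K1* with *H2-D1*, r was 0.93 and rho 0.92, each with the smallest p these resamples can give, 1e-05, and adjusted p of 5.6e-05 and 0.000112. Without the 2 samples farthest from the median of the first gene, the median r was 0.71 (-0.06 to 0.89). It was 0.78 within replicates 1 to 3 and 0.79 within replicates 4 to 6, and 0.66 once the mean of each group in each series had been removed. Without F2/metestrus samples 2, 4 and 5 the median fell to 0.50 (-0.48 to 0.88), with 38 of 45 pairs positive. This fall follows partly from the choice, as these samples were picked for their high values. In the other 15 samples *H2-K1* with *H2-D1* still had r = 0.87 and *Psmb8* with *Psmb9* had 0.72, whereas *Nlrc5* with *B2m* had -0.48.

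The spread within groups also differed among the members. The SD of log2 CPM within groups was 0.79 for *Nlrc5*, above that of 94.8% of the genes tested, 0.50 for *Tap1* (83.3%), 0.49 for *Psmb8* (82.5%) and 0.41 for *Psmb9* (77.4%). *Tapbp*, with 0.13, lay above 23.2% of genes, and the median over all genes was 0.21. Among genes of like level, within 0.5 on the log2 scale, the 10 genes ranked higher, with *Tap1* above 98.0%, *Psmb8* above 97.8%, *Nlrc5* and *B2m* above 96.9%, *H2-K1* above 96.0% and *Tapbp* above 54.8%. Within F2/metestrus alone *Nlrc5* lay above 98.1% of genes, *Psmb8* above 94.2%, *Tap1* above 93.3% and *Psmb9* above 90.5%. Within F1/proestrus *Nlrc5* lay above 36.6% of genes, and in males above 95.8%, where 2.22 CPM in sample 2 and 0.438 CPM in sample 6 were the extremes.

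The genes most like the members were sought among 17753 genes with a mean of at least 1 CPM, by Pearson's r with the mean of the 10 standardized profiles over the 18 samples. The highest r were those of *Gm20496* (0.958), which overlaps *Psmb8* and *Tap2* exons on the other strand, *Gbp7* (0.931), *Igtp* (0.909), *Ifi47* (0.886) and *Iigp1* (0.871). They were followed by *Gbp2*, *Tapbpl*, *Gbp3*, *Irgm1* and *Gm43302*, with r of 0.843 to 0.864. Of the 25 interferon-induced genes compared, 16 were among the first 50, and the median r of the 25 was 0.763 against 0.043 for all genes. The list had been chosen with earlier results of these data known, so that this contrast is no independent support. Without the 3 F2/metestrus samples, which were picked for their high values, the r of the 10 genes named first lay between -0.361 (*Iigp1*) and 0.262 (*Gm20496*). Among the first 50 genes the highest r without them were those of the class I gene *H2-Q7* (0.664, from 0.808) and of *Eln* (0.657, from 0.687), chosen after their values were seen.

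Markers of other cells were examined beside these values. In a bulk sample fewer cells of a type and less RNA per cell cannot be told apart. The 15 microglial markers summed to 472 to 572 CPM in F1/proestrus, 497 to 565 CPM in F2/metestrus and 538 to 636 CPM in males, and 14 endothelial markers to 338 to 360, 328 to 357 and 317 to 383 CPM. For none of these 29 genes were F2/metestrus samples 2, 4 and 5 the 3 highest, nor for any of the 8 class II, 9 neutrophil or 7 border macrophage genes tested. These samples were the 3 highest for 0.217% of all genes, so that a count of 0 in lists this short shows little. They were the 3 highest for 1 of 5 T and NK cell genes tested. The class II sums were 116, 99.9 and 145 CPM in samples 2, 4 and 5, and 68.9 to 134 CPM in the other 15 samples. The microglial sums were higher in males than in females (586.8 against 518.3 CPM, two-sided exact permutation test over 18564 splits, adjusted p = 0.044), while the members had lower means there. This difference did not pass when log2 values were averaged in place of sums. Between the series 9 of 15 microglial markers were higher and 1 was lower, against 14% and 13% of all genes, and the part of microglia in the members' differences was not tested. T and NK cell markers, which include the cells that read class I, summed to 2.63 to 4.65 CPM in all 18 samples, with 5 of 14 genes passing the filter on low counts. *Cd8a*, the coreceptor for class I, was at 0 CPM in 14 samples and reached 0.115 CPM. The T and NK sums in F2/metestrus samples 2, 4 and 5 were 4.63, 4.65 and 4.57 CPM, the highest 3 of the 18, and their part in the members' values was not tested.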

How the data were processed

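RNA-sequencing counts were examined for 18 ipsilateral DHSC samples (6 F1/proestrus, 6 F2/metestrus, 6 males). The authors deposited raw counts per gene, after unique mapping to mm10 with Subread (version 2.0.3 in the submitters' processing notes) and counting on exons with featureCounts, without normalization. The methods name a TruSeq kit, the labels SMART-Seq amplification with Nextera XT, and strand use is not given in the sources used here. A deposited table of the authors' DESeq2 comparison (mean, fold change, standard error, statistic and p-values) served only to pair IDs with symbols. The groups come from the sample labels.

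Genes were filtered with filterByExpr (minimum count 10, minimum total 15), normalized with TMM and tested with edgeR 4.0.16 (quasi-likelihood test) in R 4.3.3 with Benjamini-Hochberg adjustment over all genes at an FDR of 5%. The 12 females were fitted for F2/metestrus against F1/proestrus, all 18 samples for males against females, and the library series with group as a covariate. On simulated data the test recovered 78.8% of 198 genes changed 2-fold between the female groups (23764 genes tested), with 6.59% false calls. There each changed gene was shifted alike in every sample of a group. The rate therefore does not cover genes that are high in only part of a group, as several members were in F2/metestrus. Nor does it cover changes below 2-fold, and the members other than *Nlrc5* differed by 1.1-fold (*Tapbp*) to 1.93-fold (*Tap1*). Log2 CPM used a prior count of 2. Positions and exon lengths come from GENCODE vM21 (GRCm38), which held 55480 of the gene IDs, and promoters from RefSeq (GRCm38.p6). Alternatives were DESeq2 1.42.0, limma voom (limma 3.58.1), size factors, other filters, robust dispersions, 3 groups in 1 fit, the replicate number as a block, the series as a covariate, subsets of groups or series, and leaving out each sample. Permutation tests used scipy 1.17.1 and numpy 2.4.6. The named genes are the 10 members, the listed proteasome and regulator genes and any listed gene that passed, besides those named as chosen for their likeness. *Gbp2*, *Cd8a* and the *H2-Q* genes were named after their values were seen. The members and lists were chosen with earlier results of these data known.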

Additional observations from a re-analysis of the deposited data

Results flagged for a closer look

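In 30 sets of 6 samples (10 genes in 3 groups), the gap between the most extreme sample and its nearest neighbour was compared with the range of the group, and 2 samples stood farther out than Dixon's limit, where chance flags about 1 in 20 sets. *Tap1* had 3.86 CPM in male sample 5, with 5.43 CPM in the next lowest male, a gap of 0.818 of the range. *H2-T23* had 20.7 CPM in F1/proestrus sample 4, with 16.7 CPM in the next highest, a gap of 0.69 of the range. No member's contrast differed between the library series by the interaction test.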

How the results depend on the processing

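In the female comparison the 10 genes kept their direction in 117 of 120 values under the alternatives and in 120 of 120 values with 1 sample left out, and 0 were called throughout. Leaving out F2/metestrus sample 5 took *Psmb8* from 0.683 to 0.373, *B2m* from 0.303 to 0.169 and *H2-T23* from 0.303 to 0.169, and leaving out sample 4 took *H2-K1* from 0.376 to 0.214 and *H2-D1* from 0.204 to 0.13. In males without F2/metestrus sample 5, *B2m* went from -0.077 to -0.003. The 3 reversals came without F2/metestrus samples 2, 4 and 5, which had been picked for their high values (*B2m* -0.061, *Psmb8* -0.11, *H2-T23* -0.026). DESeq2 called 2 genes overall in place of 0, and the cause was not tested. For males against females, 0 of the 10 genes were called in any alternative. Against F1/proestrus alone, *H2-K1* (0.011), *H2-D1* (0.005), *B2m* (0.074), *Tap1* (0.014), *Psmb8* (0.008), *Psmb9* (0.143) and *Nlrc5* (0.142) turned positive. Without the 3 F2/metestrus samples *H2-K1* (0.003), *B2m* (0.097), *Psmb8* (0.045), *Psmb9* (0.09) and *Nlrc5* (0.119) did, and *Nlrc5* (0.053) also in replicates 1 to 3 alone. The count over all genes, 49, became 160 with DESeq2, 31 with at least 10 counts in every sample, 134 with the series as a covariate, 16 and 13 in replicates 1 to 3 and 4 to 6 alone, 13 and 22 against F1/proestrus and F2/metestrus alone, 30 without the 3 samples and 25 (without male sample 5) to 77 (without F1/proestrus sample 5) with 1 sample left out. Between the series, the 6 called genes became 0 and all called genes 1312 in males alone and 3932 overall in females alone, where fewer samples were fitted. Leaving out 1 sample gave 3 (without F2/metestrus sample 1) to 8 members. *Tap1* (-0.13) and *Tap2* (-0.029) turned negative in males alone and *Nlrc5* positive in females alone (0.259), and leaving out 1 sample moved *Nlrc5* from -0.292 to 0.018. The median r of 0.79 fell to 0.50 without the 3 samples, and the 2 marker sums that passed became 0 on the log scale. Same-numbered samples did not deviate together in every pair (r of -0.105 to 0.228), and whether the replicate numbers pair the samples is not known. With the replicate block 0 of the 10 genes were called between the female groups (median log2 fold change 0.31) or the sexes. Among all genes 148 were then called between the sexes. At this depth the lowest member value, 0.438 CPM for *Nlrc5*, lay above the 3-count floor.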

Other observations

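The other class I genes fell into even and uneven ones. *H2-T22* was even, at 15.2 to 20.8 CPM in the 18 samples, with a log2 fold change of 0.08 between the female groups. *H2-Q6* had 13.5 CPM in F2/metestrus sample 4, 3.86 CPM in sample 5, 1.89 CPM in sample 2 and 0.798 to 2.31 CPM in the other 15 samples. *H2-Q7* had 9.77 CPM in F2/metestrus sample 4, 3.59 CPM in sample 5 and 2.40 CPM in sample 2, against 1.2 to 2.13 CPM in the others. Sample 4 therefore exceeded sample 5 in the *H2-Q* genes and in *H2-K1*, *H2-D1* and *Tap2*, whereas sample 5 exceeded sample 4 in *B2m*, *Tap1*, *Psmb8*, *Psmb9*, *Nlrc5*, *Tapbp* and *H2-T23*. *H2-Q6* and *H2-Q7* are near-identical copies, so that the division of their reads is uncertain. None of the 9 other class I genes was called between the female groups or between the sexes, with 1 and 0 at an unadjusted p under 0.05 in edgeR. Between the library series *H2-M3* (log2 fold change 0.22) and *Fcgrt* (0.16) were higher and *H2-T24* (-0.40) was lower, against 14% and 13% of all genes.

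Of 8 receptors for class I, 3 passed the filter on low counts, the inhibitory receptors *Pirb*, *Lilrb4a* and *Lilr4b*, with a summed list level of 1.06 to 2.22 CPM. None was called in any of the 3 comparisons. Schwann cell markers were higher in males (1252 against 761.5 CPM, two-sided exact permutation test, adjusted p = 0.044, and 0.0733 when log2 values were averaged in place of sums). For 0 of their 5 genes were F2/metestrus samples 2, 4 and 5 the 3 highest, against 0.217% of all genes.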
